A study of Mus musculus with 25 samples.

Results

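This account describes 38 immediate-early and heat-shock response genes in macrophages sorted from mouse glioblastoma models. The members were taken as a fixed list of gene symbols, and all 38 were found among the 30749 genes of the deposited table and were followed across its 21 libraries. They fall into 6 roles: 8 AP-1 subunits and partners, 11 other transcription factors, 4 genes of the Ier family with Rhob, 6 feedback inhibitors, 4 genes of messenger RNA decay and growth control, and 5 heat-shock genes. Every member had at least 10 normalised counts in at least 3 libraries, so none was lost to the filter on low values.

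The series compared RNA of monocyte-derived macrophages (MDM, cells that enter a tumour from the blood) with RNA of microglia (the resident macrophages of the brain). The tumours were of 2 kinds, named type 1 and type 2, and of 2 models, spontaneous or transplanted; the labels record no other treatment. There were 3 microglia libraries in each of the 4 tumour classes, and 2 MDM libraries from type 1 spontaneous, 4 from type 1 transplanted, 1 from type 2 spontaneous and 2 from type 2 transplanted tumours. A further 4 wild-type samples, microglia without a tumour, are listed in the labels and were not analysed here. Mouse strain, age, the transgenes that define the tumour types, the sort gates and the time from dissociation to lysis are not given in the sources used here. The labels do not say whether each library of a group is a different mouse; p-values here measure library-to-library spread, and that may be technical.

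Immediate-early genes are transcribed within minutes of a stimulus from factors that are already present in the cell, so no new protein has to be made first. Their promoters are read by CREB at cAMP response elements, by SRF with its ternary complex partners at CArG boxes and by NF-kB. The first products are AP-1, Egr, Klf and Nr4a transcription factors, followed closely by phosphatases and RNA-decay proteins that shut the response off. Heat-shock genes answer unfolded protein through the factor HSF1. In brain macrophages both programs are known to be switched on by the warm enzymatic digestion used to free cells from tissue, as well as by signals inside the living tissue.

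Promoter sequence was read for the members from RefSeq (GRCm38.p6), as the 250 bases before each annotated transcript start. Of the 38 members, 32 had an entry, with 40 windows in all. The cAMP response half-site TGACG, counted on both strands, was present before at least 1 start of 18 of these 32 genes (56.2%), against 19.8% of all 27025 genes with an entry and 17.8% of all 32851 windows. The full palindrome TGACGTCA, which holds the half-site on each strand, was found in 4 members, Maff, Dusp1, Ppp1r15a and Btg2 (12.5%, against 1.77% of all genes). Windows with the heat-shock pair GAANNTTC belonged to 5 members, Fosl2, Jun, Hspa1a, Hspa1b and Dnaja4 (15.6% against 7.73%). An NF-kB site was found in 9 members (28.1% against 8.23%), a CArG box in 3 (9.38% against 1.62%), the AP-1 site TGANTCA in 1 (3.12% against 7.82%) and the TATA box TATAAA in 4 (12.5% against 14.3%). Member windows were richer in G and C, with a median of 64.6% against 52.4%, and motifs that hold CG are more frequent in such sequence. A match describes letters in a window and not binding.

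The windows of 6 genes are shown as examples. The first 4 lie before Nr4a1, Nr4a2, Fos and Btg2, members with higher counts in MDM, and capitals mark TGACG or its reverse complement CGTCA. Fosl2, Dusp2, Klf6, Nfkbia and Zfp36, also called higher in MDM, had no such match, while Atf3, Maff and Ppp1r15a, not called, had matches. In Nr4a1 (chr15:101266596-101266845, plus strand, upstream of an internal start of the gene) the matches begin 233, 213, 69 and 40 bases before the start, and in Nr4a2 (chr2:57124004-57124253, minus strand) 200, 144, 123 and 111 bases before it. Those of Fos (chr12:85473640-85473889, plus strand) begin at 129 and 66 bases, and those of Btg2 (chr1:134079156-134079405, minus strand) at 166 and 163 bases, where they overlap in the palindrome. The last pair precede Hspa1a (chr17:34972157-34972406, minus strand) and Hspa1b (chr17:34959239-34959488, minus strand), with capitals for the heat-shock pair, which begins 104 bases before both starts. All are written 5′ to 3′ on the strand of the gene.
Nr4a1: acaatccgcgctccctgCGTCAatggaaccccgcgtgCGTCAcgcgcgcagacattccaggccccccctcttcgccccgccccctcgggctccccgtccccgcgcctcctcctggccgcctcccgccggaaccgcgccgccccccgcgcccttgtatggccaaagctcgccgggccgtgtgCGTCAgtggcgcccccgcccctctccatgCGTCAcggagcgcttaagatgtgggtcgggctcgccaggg
Nr4a2: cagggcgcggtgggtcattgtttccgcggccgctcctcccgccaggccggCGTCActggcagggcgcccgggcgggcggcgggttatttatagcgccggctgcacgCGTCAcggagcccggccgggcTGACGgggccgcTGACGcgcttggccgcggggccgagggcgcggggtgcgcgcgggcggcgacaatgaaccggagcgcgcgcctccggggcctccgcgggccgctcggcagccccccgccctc
Fos: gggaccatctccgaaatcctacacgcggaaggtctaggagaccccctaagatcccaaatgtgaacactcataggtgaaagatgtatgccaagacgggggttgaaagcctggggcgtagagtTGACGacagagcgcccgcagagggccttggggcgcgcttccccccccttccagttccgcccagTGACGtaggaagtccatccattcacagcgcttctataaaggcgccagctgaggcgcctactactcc
Btg2: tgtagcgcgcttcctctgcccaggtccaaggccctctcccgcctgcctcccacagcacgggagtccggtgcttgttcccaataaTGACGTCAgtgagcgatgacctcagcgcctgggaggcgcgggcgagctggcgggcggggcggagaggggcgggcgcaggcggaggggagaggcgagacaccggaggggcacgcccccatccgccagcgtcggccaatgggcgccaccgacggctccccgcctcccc
Hspa1a: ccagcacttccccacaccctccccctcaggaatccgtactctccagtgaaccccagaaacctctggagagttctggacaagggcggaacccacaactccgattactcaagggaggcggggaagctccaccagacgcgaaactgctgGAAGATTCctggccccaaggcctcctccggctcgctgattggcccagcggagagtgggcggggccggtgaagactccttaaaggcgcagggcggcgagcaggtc
Hspa1b: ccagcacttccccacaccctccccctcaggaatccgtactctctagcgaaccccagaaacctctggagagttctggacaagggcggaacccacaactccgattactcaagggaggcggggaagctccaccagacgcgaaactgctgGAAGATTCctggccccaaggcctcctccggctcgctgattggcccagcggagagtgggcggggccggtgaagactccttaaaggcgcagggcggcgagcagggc
The windows of Hspa1a and Hspa1b, neighbouring genes for the inducible Hsp70 chaperone, differ at 3 of 250 bases. Their transcripts also share sequence: 58.8% of the 50-base windows of Hspa1a occur in Hspa1b and 62.3% of those of Hspa1b in Hspa1a, so the split of reads between them is uncertain and they are described together.

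Between 26530069 and 50365607 reads were recovered per library, with 16297 to 21435 genes detected. Levels are normalised read counts, and differences are on the log2(normalised count + 1) scale with the standard error (SE) of a limma-trend fit to 8 group means. The threshold for calling a gene was 0.05 on the p-value adjusted by Benjamini-Hochberg across the 17216 genes tested. Defining markers followed the labels: all 12 microglia markers were called lower in MDM and all 12 MDM markers higher. In MDM, 15 of 15 tested T and NK cell markers, 10 of 10 dendritic cell markers and 7 of 8 B cell markers were also called higher. Summed T and NK markers reached 225961 to 248216 in all 4 MDM libraries of type 1 transplanted tumours. They were 287235 and 29449 in the type 2 transplanted pair, 10662 to 37206 in the 3 spontaneous MDM libraries and 106 to 5600 in microglia, where up to 12 of the 15 stood at 0. Fewer cells of a type and less RNA per cell cannot be told apart in such libraries. The microglia libraries named below as rich in transcripts of other leukocytes are type 1 spontaneous replicate 2 and type 1 transplanted replicates 1 and 2. Without them, type 1 transplanted microglia keep replicate 4 alone. The name does not hold for neutrophil markers. These summed to 19.6 to 26.1 in type 1 transplanted, 113 to 1743 in type 1 spontaneous and 23.8 to 5534 in type 2 transplanted microglia.

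**Figure D1:**
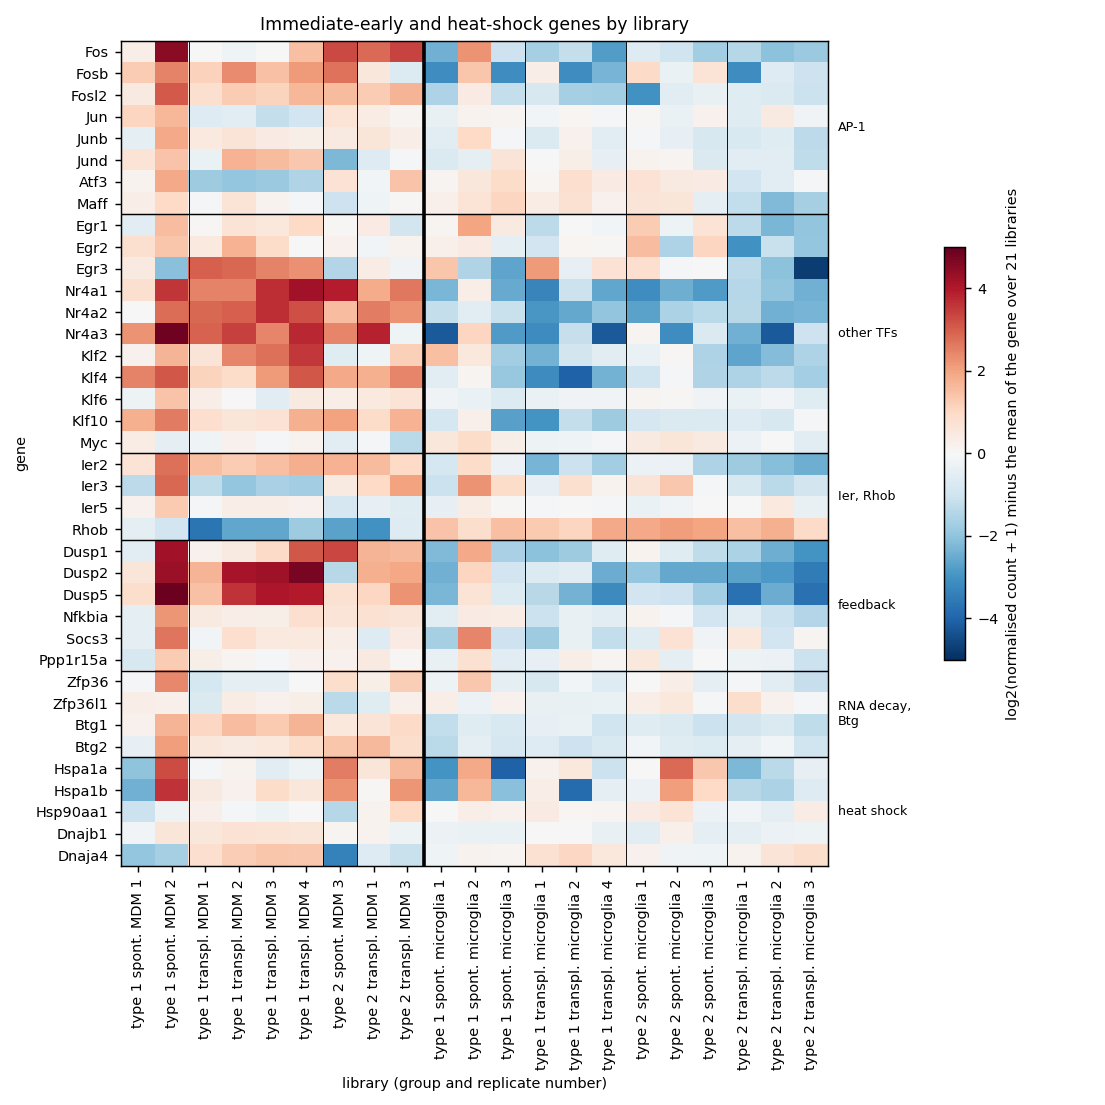
Rows are the 38 genes grouped by role, columns the 21 libraries with MDM left of the thick line, and colour the log2(normalised count + 1) minus the gene's mean over all libraries. Red cells gather in MDM columns for 22 genes called higher there, and column type 1 spontaneous microglia 2 is red for many of the same rows.

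More members were called higher in MDM than lower, led by the Nr4a receptors, Dusp phosphatases, Klf4 and Fos, and 12 were not called. Averaged over the 4 tumour classes, 22 of 38 members were called higher in MDM and 4 lower. Of all tested genes 42.7% were called in this comparison, 23% higher and 19.8% lower. The median member differed by 0.95, against 0.07 for all genes. Rhob, Dnaja4, Hsp90aa1 and Myc were the 4 lower members. In 7 members every one of 9 MDM libraries lay above every one of 12 microglia libraries (3.8% of all genes did so), namely Fosl2, Nr4a1, Nr4a2, Klf4, Klf10, Dusp5 and Btg1, and in Rhob every MDM library lay below (3.06% of all genes). Without the 5 MDM libraries richest in T and NK cell transcripts, which removes the class of type 1 transplanted tumours, 15 members were called higher and 3 lower (24% of all genes called). Of the 8 calls lost there, Junb at 0.89, Nfkbia at 1.14, Egr2 at 1.02 and Hsp90aa1 at -0.49 kept nearly the same difference and Zfp36 had a larger one, 1.24. Fosb at 2.23, Klf2 at 1.38 and Dnajb1 at 0.33 had smaller ones. Fewer libraries also widen the error, and the part of T and NK cell RNA was not tested.

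**Figure D2:**
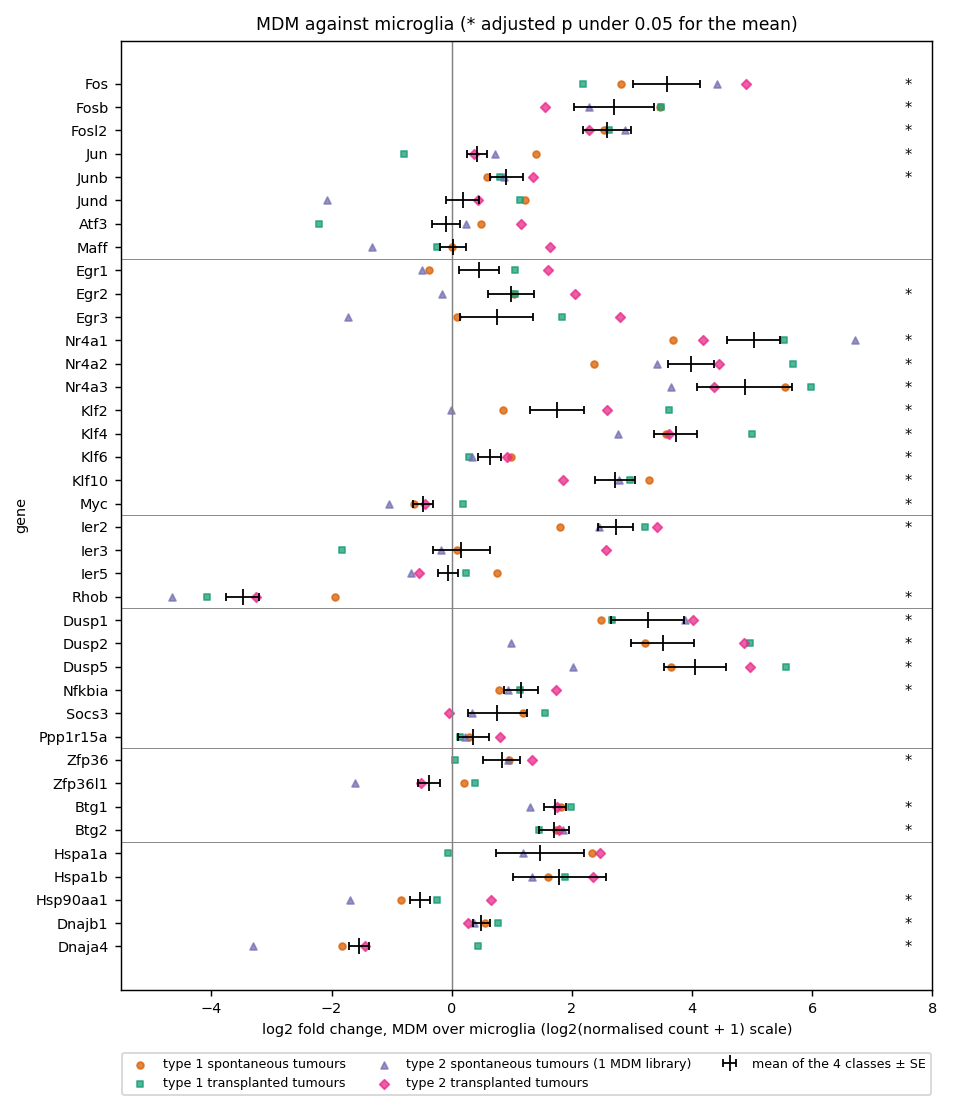
Log2 differences of MDM over microglia for each gene, with symbols for the 4 tumour classes, a black bar for their mean ± SE, and an asterisk for an adjusted p under 0.05 of that mean. The Nr4a genes, Klf4 and the Dusp genes lie right of 0 in all 4 classes, and Rhob lies left of 0 in all 4.

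Among the other transcription factors the nuclear receptors of the Nr4a family differed most. Nr4a1 (Nur77; chromosome 15, 101253902 to 101274795), a receptor without a known ligand that is induced by antigen-receptor and growth signals, had 2517 to 26942 normalised counts in MDM (median 9034) and 149 to 1854 in microglia (median 268). The lowest MDM library, type 1 spontaneous replicate 1, lay above the highest microglia library, type 1 spontaneous replicate 2. Nr4a1 was 32.6-fold higher (5.03 ± 0.44, adjusted p = 7.4e-08), and 4.99 remained without the T and NK-rich MDM libraries. Its relative Nr4a2 (chromosome 2, 57106830 to 57124003) ranged from 66.0 to 839 in MDM and from 7.61 to 43.9 in microglia, again without overlap. The difference of Nr4a2 was 3.98 ± 0.38 (15.7-fold, adjusted p = 1.7e-07). Nr4a3 (chromosome 4, 48045078 to 48086447) was scarcer, with 14.9 to 541 in MDM, 0 to 37.4 in microglia and 3 microglia libraries at 0, so type 2 transplanted MDM replicate 3 overlapped them. Its difference was 4.88 ± 0.79 (29.5-fold, adjusted p = 6.6e-05). At such counts the size depends on the scale, with 3.36 at a pseudocount of 8 and 2.52 on the deposited scale, both still called.

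Krüppel-like factors shape macrophage identity and quiescence, and all 4 in the list were called higher in MDM. Klf4, a factor of monocyte differentiation (chromosome 4, 55527137 to 55532475), had 396 to 1810 counts in MDM and 11.7 to 226 in microglia, with no overlap and a difference of 3.73 ± 0.36 (13.3-fold, adjusted p = 1.9e-07). Klf10, a TGF-beta-induced factor (chromosome 15, 38291464 to 38300711), ranged from 2310 to 9119 in MDM and from 190 to 1815 in microglia, and differed by 2.72 ± 0.33 (6.6-fold, adjusted p = 2.5e-06). Klf2, which keeps lymphocytes and myeloid cells quiet, overlapped: 2084 to 36930 in MDM and 521 to 9034 in microglia. Its difference of 1.76 ± 0.45 (adjusted p = 0.0038) was uneven, with 3.62 in type 1 transplanted tumours and the single type 2 spontaneous MDM library at 2084, within the microglia of its class. Klf6 differed by 0.63 ± 0.19 (adjusted p = 0.012).

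The Egr zinc-finger factors, classic targets of SRF and its partners, overlapped between the cell types. Egr1 had 999 to 5534 counts in MDM and 387 to 7493 in microglia, and its difference of 0.45 ± 0.33 (95% interval -0.25 to 1.14) was not called. Egr2 differed by 0.99 ± 0.38 (adjusted p = 0.041), a call lost in 15 of 34 alternative analyses. Egr3 was low, at 5.20 to 207 in MDM and 0 to 114 in microglia, and its difference of 0.75 ± 0.61 was not called. Myc, the growth regulator, was slightly lower in MDM at -0.48 ± 0.17 (adjusted p = 0.027), with ranges of 1204 to 3998 and 2140 to 5787 that overlapped. That call was lost, among others, with the replicate number as a fixed block, fitted on same-numbered pairs only (-0.31, adjusted p = 0.29). It was also lost without the microglia libraries richest in transcripts of other leukocytes (-0.46, 0.072).

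AP-1 is a dimer of Fos and Jun proteins, and the Fos side differed more than the Jun side. Of the 8 AP-1 members 5 were called higher in MDM and none lower. Fos (chromosome 12, 85473890 to 85477274) had 629 to 16716 counts in MDM with a median of 2090, and 105 to 3467 in microglia with a median of 253. Only 1 microglia library, type 1 spontaneous replicate 2 at 3467, exceeded the lowest MDM libraries, since the next highest had 465. The difference was 3.58 ± 0.56 (11.9-fold, adjusted p = 4.3e-05). Fosl2, a slower Fos relative (chromosome 5, 32136472 to 32157840), ranged from 463 to 2799 in MDM and from 40.2 to 452 in microglia, with no overlap, and differed by 2.58 ± 0.40 (5.97-fold, adjusted p = 3.7e-05). Fosb was nearly silent, with 4.37 to 55.7 counts in MDM and 0 to 21.5 in microglia, 4 of them at 0, and differed 6.49-fold (2.70 ± 0.67, adjusted p = 0.003). Its size depends on the scale too, with 1.45 at a pseudocount of 8 and 1.05 on the deposited scale. Without the T and NK-rich MDM libraries the difference of Fosb was no longer called (adjusted p = 0.12).

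Junb (chromosome 8, 84976909 to 84978748), the Jun protein that tempers growth, had 14938 to 77347 counts in MDM and 8461 to 41710 in microglia, and differed by 0.91 ± 0.27 (1.87-fold, adjusted p = 0.012). Jun differed by 0.42 ± 0.16 (adjusted p = 0.038), a call lost in 16 of 34 alternatives. Jund at 0.18 ± 0.27, Atf3 at -0.09 ± 0.23 and Maff at 0.02 ± 0.22 were not called, with 95% intervals of -0.39 to 0.75, -0.58 to 0.40 and -0.45 to 0.48. For Jun and Atf3 these means join classes of opposite sign, described further on. Of the exon bases of Jund, 52.6% are overlapped by a gene on the other strand, and strand use in counting is not given in the sources used here.

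**Figure D3:**
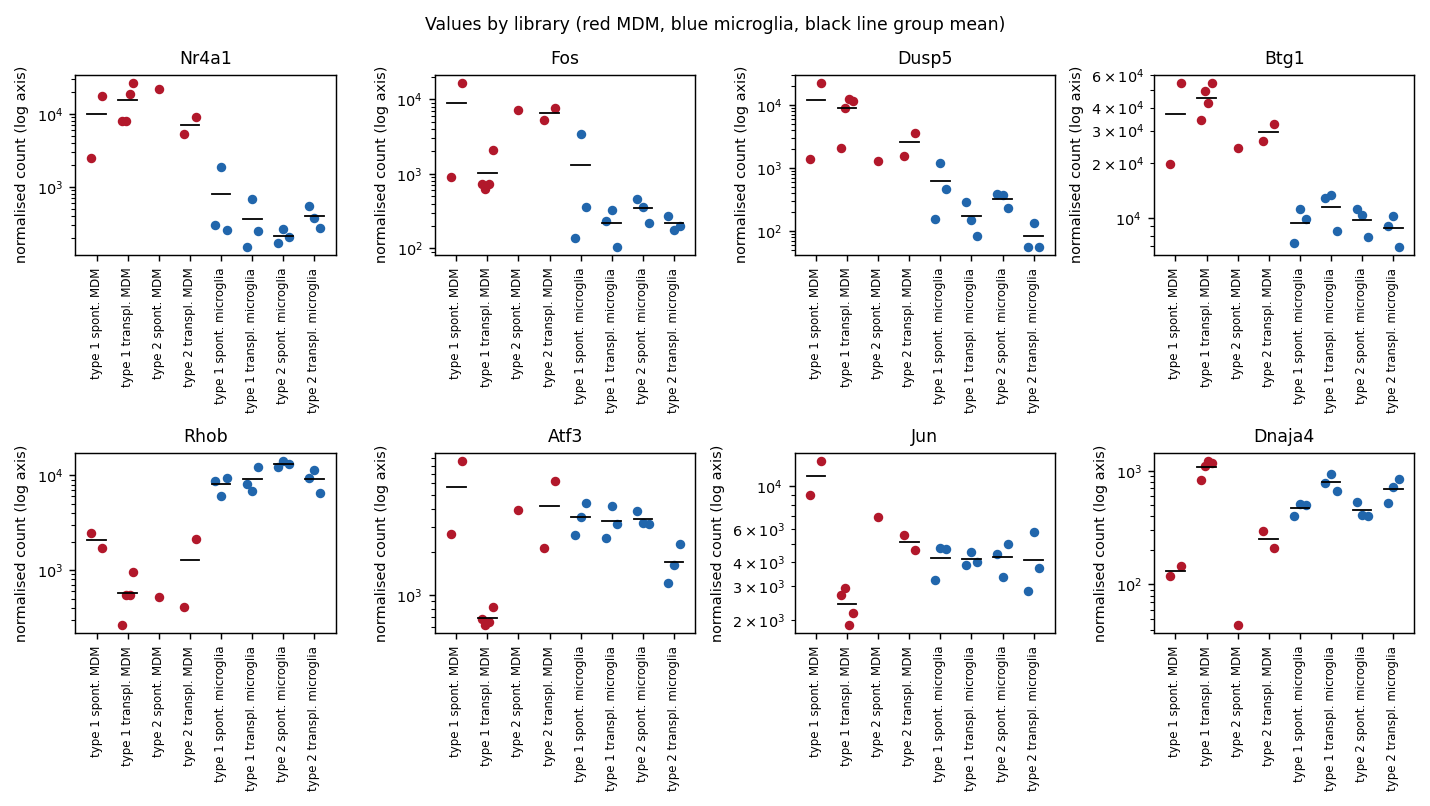
Normalised counts on log axes for 8 genes, 1 point per library, in the 8 groups, with a line at the mean of groups of 2 or more. Nr4a1 and Btg1 show MDM points above all microglia points, Rhob shows the reverse, and Atf3 and Dnaja4 place the 4 type 1 transplanted MDM points away from the other MDM points.

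Feedback inhibitors were called higher in 4 of 6 cases and lower in none. The nuclear phosphatases that strip active MAP kinases led: Dusp5, which acts on ERK (chromosome 19, 53529145 to 53541809), had 1300 to 22928 counts in MDM and 55.7 to 1216 in microglia. The groups did not overlap, and the difference was 4.05 ± 0.52 (16.6-fold, adjusted p = 4.6e-06). Of the exon bases of Dusp5, 22.1% are overlapped by a gene on the other strand. Dusp2 (chromosome 2, 127336159 to 127338377), abundant in activated leukocytes, had 18506 to 28735 counts in 3 of 4 type 1 transplanted MDM libraries and in type 1 spontaneous replicate 2 had 21121, whereas the type 2 spontaneous MDM library had 405. It differed by 3.51 ± 0.52 (11.4-fold, adjusted p = 2.8e-05), with overlap at 405 against a microglia maximum of 2249. Dusp1, which acts mainly on p38 and JNK (chromosome 17, 26505591 to 26508472), had 1640 to 43515 counts in MDM and 298 to 8833 in microglia, and differed by 3.26 ± 0.61 (9.59-fold, adjusted p = 0.00026).

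Nfkbia, the inhibitor that holds NF-kB in the cytoplasm, differed by 1.15 ± 0.28 (2.22-fold, adjusted p = 0.0025), with 10011 to 61903 counts in MDM and 4878 to 17843 in microglia. Socs3, the brake on cytokine receptor signalling, spread from 3891 to 39230 in MDM and from 1765 to 33459 in microglia, and its 0.76 ± 0.49 was not called. Ppp1r15a (GADD34), which restores translation after stress, was not called at 0.36 ± 0.26. The highest Socs3 value of either cell type came from type 1 spontaneous replicate 2.

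Growth and RNA-decay genes added 3 higher calls of 4. Btg1 (chromosome 10, 96617001 to 96622813), an antiproliferative partner of the deadenylase complex, had 19758 to 54744 counts in MDM and 6950 to 13329 in microglia. The groups were fully separated and the difference was 1.72 ± 0.19 (3.29-fold, adjusted p = 8.6e-07). Its relative Btg2 (chromosome 1, 134074865 to 134079155) had 4721 to 26743 and 2460 to 5729, and differed by 1.71 ± 0.25 (3.26-fold, adjusted p = 2.6e-05). Zfp36 (tristetraprolin), which destroys AU-rich cytokine messages, differed by 0.83 ± 0.31 (adjusted p = 0.037), a call lost in 13 of 34 alternatives. Zfp36l1 at -0.38 ± 0.18 was not called, and 55.9% of its exon bases are overlapped on the other strand.

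Ier2 and Rhob, both early targets of serum, went opposite ways. Ier2, a small nuclear protein (chromosome 8, 84661331 to 84662852), had 8128 to 34105 counts in MDM and 936 to 9554 in microglia. A single microglia library, type 1 spontaneous replicate 2, reached into the MDM range, and the difference was 2.73 ± 0.29 (6.62-fold, adjusted p = 6.1e-07). Rhob, an endosomal small GTPase (chromosome 12, 8497661 to 8500009), had 5984 to 14170 counts in microglia and 263 to 2438 in MDM. With no overlap, Rhob was 11.2-fold lower in MDM (-3.48 ± 0.28, adjusted p = 3.2e-08). Ier3 at 0.16 ± 0.47 and Ier5 at -0.06 ± 0.16 were not called, with 95% intervals of -0.83 to 1.14 and -0.40 to 0.29.

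Of the 5 heat-shock members 1 was called higher and 2 lower. Dnajb1, the Hsp40 that HSF1 induces, had 2792 to 5517 counts in MDM and 2308 to 4013 in microglia, and differed by 0.49 ± 0.14 (adjusted p = 0.0076). Hsp90aa1, the inducible Hsp90, was lower by -0.53 ± 0.17 (adjusted p = 0.019), with 898 to 4846 against 1776 to 3914. That call was lost in 7 of 34 alternatives. Dnaja4, another Hsp40 (chromosome 9, 54698848 to 54716317), was 2.9-fold lower (-1.54 ± 0.17, adjusted p = 7.1e-07). That mean joins 3 classes called lower and type 1 transplanted tumours, where the difference was 0.44 ± 0.27 and not called. It ranged from -2.28 to -0.94 over the alternatives, and was smallest without the single type 2 spontaneous MDM library. Of its exon bases 44.1% are overlapped on the other strand by Wdr61, which itself differed by 0.17 ± 0.14 (adjusted p = 0.36). The Hsp70 pair varied widely within each cell type: Hspa1a had 29.3 to 1175 counts in MDM and 6.45 to 883 in microglia, and Hspa1b 17.9 to 1228 and 5.84 to 418. Of the exon bases of Hspa1a, 19% are overlapped on the other strand. Neither gene of the pair was called, at 1.47 ± 0.74 and 1.79 ± 0.77. Without the 3 microglia libraries richest in transcripts of other leukocytes both were called higher, at 2.17 (adjusted p = 0.017) and 1.91 (0.043), and Hsp90aa1 at -0.49 lost its call (0.07).

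Taken class by class, the sign was the same in all 4 tumour classes for 22 members. Differences were above 0 in every class for 21 members (22.2% of all genes) and below 0 in every class for Rhob (19% of all genes). In type 1 spontaneous tumours 12 members were called higher and 2 lower (13.4% of all genes, 8.52% up and 4.86% down). In type 1 transplanted tumours the counts were 15 and 3 (34.1% of all genes, 18.2% higher and 15.9% lower). In type 2 spontaneous tumours they were 6 and 4 (10.7%, 4.97% higher and 5.73% lower), and in type 2 transplanted tumours 14 and 2 (18%, 9.52% higher and 8.45% lower). The type 2 spontaneous class rests on 1 MDM library, whose spread is assumed to be that of the other groups. Members called higher in all 4 classes were Nr4a1, Nr4a2, Klf4 and Ier2, and Rhob was lower in all 4. Nr4a1 differed by 3.68 ± 0.84, 5.53 ± 0.71, 6.71 ± 1.07 and 4.18 ± 0.84 in the order just given. Rhob differed by -1.94 ± 0.54, -4.07 ± 0.45, -4.65 ± 0.68 and -3.25 ± 0.54.

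Some calls were made in a single class. Whether classes differ was tested for every member between models in type 1 tumours and between tumour types in transplanted tumours. Only Jun, Atf3 and Dnaja4 passed those tests, described further on, and other pairs of classes were not compared. Atf3 was called lower in type 1 transplanted tumours alone (-2.21 ± 0.38, adjusted p = 0.00016). Nr4a2 ran from 2.36 ± 0.73 in type 1 spontaneous to 5.68 ± 0.61 in type 1 transplanted tumours, and Dusp5 was not called in type 2 spontaneous tumours, with differences of 3.65 ± 1.00 to 5.57 ± 0.83 in the other 3 classes. In type 2 spontaneous tumours Hsp90aa1 was lower by -1.70 ± 0.43 (adjusted p = 0.015) and Zfp36l1 by -1.61 ± 0.45 (adjusted p = 0.027). Maff was called higher in type 2 transplanted tumours (1.63 ± 0.43, adjusted p = 0.014), where Nfkbia was too (1.74 ± 0.53, adjusted p = 0.031). Fos was called in type 2 tumours of both models, at 4.42 ± 1.36 and 4.90 ± 1.08, and missed the threshold in both type 1 classes. In type 1 spontaneous tumours, leaving out MDM replicate 2 left 1 call and leaving out MDM replicate 1 gave 23, so that count follows which of the 2 MDM libraries is kept. Without microglia replicate 1 or 3 it was 6. Leaving out type 2 spontaneous microglia replicate 1 took the count of that class from 10 to 5.

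Both type 1 spontaneous libraries that carry the number 2 stood apart, and in the same direction. The labels do not say that a shared number marks a shared animal. Among the 9 MDM libraries, replicate 2 of type 1 spontaneous tumours had the highest value for 23 of 38 members (60.5%, against 19.2% of all genes). Among the 12 microglia libraries, the one numbered 2 was highest for 20 of 38 (52.6%, against 13.2% of all genes). Values over 2 times the median of the other libraries were found for 28 members in MDM (21.3% of all genes) and for 21 in microglia (16.8%). The remaining libraries were each highest of their cell type for 0 to 5 members. At the low end, type 1 spontaneous MDM replicate 1 was lowest of its cell type for 12 of 38 members (10.2% of all genes). Type 2 transplanted microglia replicate 3 was lowest for 11 (4.82% of all genes) and the type 2 spontaneous MDM library for 9 (12.3% of all genes). The mean of type 1 spontaneous MDM thus joins the library most often highest and the one most often lowest.

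Fos had 16716 counts in that MDM library, 11.1 times the median of the other 8, and 3467 in that microglia library, 14.8 times the median of the other 11. Dusp1 had 43515 and 8833 (7.31 and 11.5 times), Socs3 had 39230 and 33459 (5.01 and 8.30 times), and Ier3, an inhibitor of ERK dephosphorylation and cell death, had 7346 and 4796 (17.9 and 4.99 times). Hspa1a had 1175 and 454 counts, 9.16 and 4.95 times the medians. Egr1 in this microglia library, at 7493, exceeded every MDM library. High values were not shared by all members: Rhob in the microglia library was 0.632 times its median, Egr3 was 0.0639 and 0.347 times, and Dnaja4 was 0.257 and 0.969 times.

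Markers moved in these libraries too. Summed MDM markers were 97669 in the microglia library, against 6316 to 53955 in the other 11, and summed microglia markers were 664811, against 877361 to 1521701. The mean log2 level of 9 stress cytokine and chemokine genes was 12.71 in that microglia library, against 9.04 to 11.36 in the others, and 12.48 in the MDM library, against 7.13 to 11.28. The part of these in the members' values was not tested. Over all libraries the comparison of cell types called 42.7% of all genes, a share not given here for the fit without these libraries. Without both libraries it called 21 members higher and 3 lower. There Jun at 0.37, Egr2 at 0.96 and Myc at -0.33 lost their calls and Hspa1a gained one at 1.27 (adjusted p = 0.031). The difference of Nr4a1 was then 4.90, of Fos 3.38, of Dusp1 2.99 and of Rhob -3.47.

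**Figure D4:**
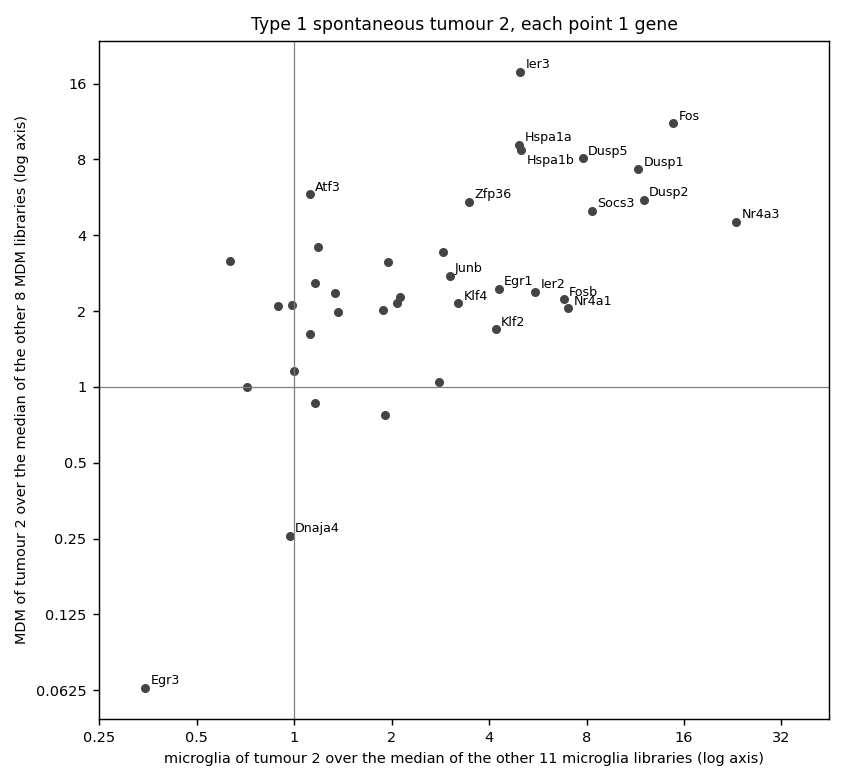
Each point is 1 of the 38 genes, placed by its count in the type 1 spontaneous microglia library numbered 2 over the median of the other 11 microglia libraries (x) and in the MDM library with that number over the median of the other 8 MDM libraries (y), both on log axes. Fos, Dusp1, Dusp2, Nr4a3 and Socs3 lie far above 1 on both axes, and Egr3 lies below 1 on both.

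In microglia most members had lower values in transplanted than in spontaneous tumours, and Egr1, Ier2 and Maff passed the test. The difference was below 0 for 33 of 38 members (47.1% of all genes), with a median of -0.57 against 0.04 for all genes. Without type 1 spontaneous microglia replicate 2, which was highest for 20 members, it was below 0 for 28 of 38, with a median of -0.32. Type 2 transplanted microglia replicate 3 was the lowest microglia library for 11 members (4.82% of all genes). The 3 called members were all lower, where 1.84% of all genes were called, 1% higher and 0.836% lower. Egr1 had 2105, 7493 and 2582 counts in type 1 spontaneous and 4628, 1577 and 3081 in type 2 spontaneous microglia. It had 758, 1878 and 1749 in type 1 transplanted and 759, 387 and 484 in type 2 transplanted microglia, so the models overlapped at 1577 to 1878. Egr1 was 3.7-fold lower in transplanted tumours (-1.89 ± 0.41, adjusted p = 0.024). Ier2 had 1724 to 9554 counts in spontaneous and 936 to 2419 in transplanted microglia, and was lower by -1.51 ± 0.35 (adjusted p = 0.035). Maff, a small Maf protein that pairs with AP-1 and NF-E2 factors, was lower by -1.10 ± 0.27 (adjusted p = 0.046).

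Further members lay just outside the threshold, with Myc at -0.77 ± 0.20 (adjusted p = 0.061), Klf4 at -1.54 ± 0.44 (0.074) and Dnaja4, higher, at 0.68 ± 0.20 (0.09). In the same comparison 7 of 15 T and NK cell markers were called higher and 2 of 12 MDM markers, Crip1 and Lsp1, lower. Leaving out the 3 microglia libraries richest in transcripts of other leukocytes left 0 calls by limma-trend, with Egr1 at -1.42 (adjusted p = 0.11), Ier2 at -1.27 (0.11) and Maff at -1.21 (0.1). No call remained either after leaving out type 1 transplanted microglia replicate 1, type 2 spontaneous microglia replicate 1 or type 2 transplanted microglia replicate 2. A single call remained without any 1 of 5 other libraries: type 1 spontaneous microglia replicate 2, type 1 transplanted microglia replicate 4, type 2 transplanted microglia replicate 1 or 3, or type 1 transplanted MDM replicate 3. Without type 2 spontaneous microglia replicate 3 there were 5. The 3 leukocyte-rich libraries include type 1 transplanted replicates 1 and 2, so that class kept 1 microglia library in their absence. The part of the other leukocytes' transcripts was not tested.

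Between tumour types Maff alone was called in microglia, lower in type 2 tumours by -1.26 ± 0.27 (adjusted p = 0.046), where 0.47% of all genes were called, 0.0465% higher and 0.424% lower. That call was lost in 27 of 34 alternatives. Its counts were 380, 520 and 672 in type 1 spontaneous, 411, 541 and 369 in type 1 transplanted, and 505, 492 and 234 in type 2 spontaneous microglia. The lowest 3 values, 136, 69.3 and 101, were the type 2 transplanted libraries, with no overlap with the other 9. The test of whether model and type acted unequally in microglia called 0 members (0.0116% of all genes, 0.00581% in each direction) by limma-trend and by voom, with 4 members at an unadjusted p under 0.05, among them Maff at -1.73 ± 0.55 and Egr3 at -4.69 ± 1.48 (adjusted p = 0.5 for both).

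**Figure D5:**
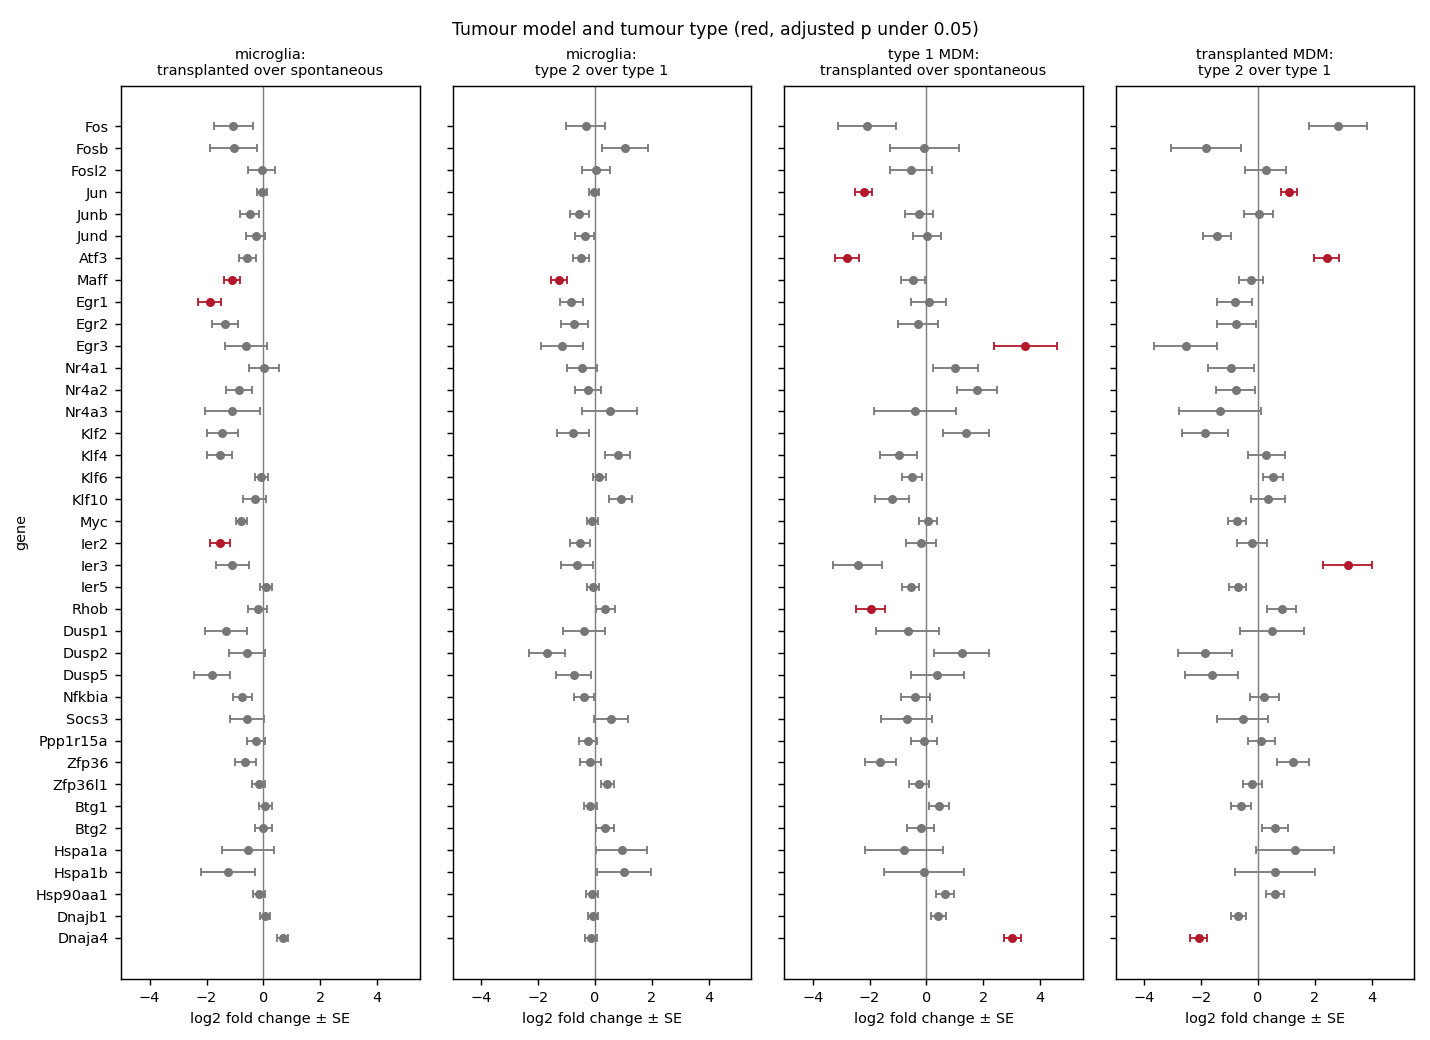
Log2 differences ± SE of the 38 genes for tumour model and tumour type in microglia (left pair of panels) and MDM (right pair), with red for an adjusted p under 0.05. Points in the first panel lie mostly left of 0, and Jun, Atf3 and Dnaja4 are red in both MDM panels with opposite signs.

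In MDM the members that differed between tumours were Jun, Atf3, Dnaja4, Ier3, Egr3 and Rhob. Only 2 comparisons between MDM groups were run, and by design both include the 4 type 1 transplanted libraries. Against type 1 spontaneous MDM, 2 members were higher and 3 lower in them (13.7% of all genes called, 5.79% higher and 7.96% lower). Type 2 transplanted MDM stood higher than them for 3 members and lower for 1 (5.91% of all genes called, 2.96% in each direction). Both comparisons use the same 4 libraries, so their values are not independent. The first count of 5 became 11 without type 1 spontaneous MDM replicate 1. The second count of 4 became 2 without type 1 transplanted MDM replicate 3 or 4, and 1 without type 2 transplanted MDM replicate 3.

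Atf3, a stress-induced repressor that joins AP-1 dimers (chromosome 1, 191170296 to 191183333), had 680, 615, 647 and 824 counts in type 1 transplanted MDM. It had 2642 and 8603 in type 1 spontaneous, 3919 in type 2 spontaneous and 2138 and 6276 in type 2 transplanted MDM, and 1218 to 4383 in microglia. The 4 type 1 transplanted MDM libraries thus held the lowest values of all 21. Their difference from type 1 spontaneous MDM was -2.79 ± 0.43 (adjusted p = 0.00039), and type 2 transplanted MDM stood 2.41 ± 0.43 above them (adjusted p = 0.0036).

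Jun, the main partner of Fos (chromosome 4, 95049036 to 95052222), behaved alike in these libraries, with 2705, 2925, 1882 and 2189 counts. The other MDM libraries had 9027 and 13554 (type 1 spontaneous), 6916 (type 2 spontaneous) and 5571 and 4635 (type 2 transplanted), all above them. Jun was lower in transplanted than in spontaneous type 1 MDM by -2.21 ± 0.29 (adjusted p = 0.00013), and higher in type 2 than in type 1 transplanted MDM by 1.09 ± 0.29 (adjusted p = 0.034). Ier3 was also higher in type 2 transplanted MDM, at 2035 and 4117 against 260 to 419 (3.16 ± 0.86, adjusted p = 0.036).

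Dnaja4 went the other way. It had 829, 1098, 1217 and 1174 counts in type 1 transplanted MDM, against 119 and 144 in type 1 spontaneous, 44.0 in type 2 spontaneous and 297 and 211 in type 2 transplanted MDM. Microglia held 400 to 937, above the other 5 MDM libraries and overlapping the lowest type 1 transplanted one. Dnaja4 was higher in transplanted than in spontaneous type 1 MDM by 3.02 ± 0.30 (8.1-fold, adjusted p = 1.5e-05) and lower in type 2 than in type 1 transplanted MDM by -2.09 ± 0.30 (adjusted p = 0.00091). Egr3, with 128 to 207 counts in type 1 transplanted MDM and 35.0 and 5.20 in type 1 spontaneous MDM, was higher by 3.48 ± 1.11 (adjusted p = 0.045). Rhob was lower in the transplanted libraries, with 263 to 957 against 2438 and 1718 (-1.97 ± 0.51, adjusted p = 0.015).

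Whether these differences were unequal in MDM and microglia was tested directly. In type 1 tumours the difference of MDM from microglia changed with the model for 3 members (4.51% of all genes called, 1.39% upward and 3.12% downward). For Jun it was 1.40 ± 0.31 in spontaneous and -0.79 ± 0.26 in transplanted tumours, a change of -2.20 ± 0.40 (adjusted p = 0.0062). Atf3 changed by -2.70 ± 0.59 (adjusted p = 0.015) and Dnaja4 by 2.28 ± 0.42 (adjusted p = 0.0064). In transplanted tumours the difference changed with tumour type for 2 members (0.749% of all genes called, 0.395% upward and 0.354% downward), Atf3 by 3.37 ± 0.59 (adjusted p = 0.015) and Dnaja4 by -1.89 ± 0.42 (adjusted p = 0.04). Without type 1 spontaneous MDM replicate 1 the first test called 5 members, and without type 2 transplanted MDM replicate 3 the second called 0 by limma-trend.

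The 4 type 1 transplanted MDM libraries also had the lowest summed microglia markers of all MDM libraries, at 13782 to 22351 against 35855 to 245626 in the other 5. Against type 1 spontaneous MDM, 9 of 12 microglia markers were called lower in them, 11 of 15 T and NK markers higher and 8 of 8 B cell markers higher. In type 2 over type 1 transplanted MDM 9 of 12 microglia markers were called higher and 2 of 8 B cell markers lower. In microglia libraries Jun had 2831 to 5789 counts and Atf3 1218 to 4383, above those 4 libraries, except that the highest of them for Jun, 2925, exceeded 1 microglia library. The part of the other cells' RNA in these values was not tested. Without the 3 leukocyte-rich microglia libraries no member passed either test of unequal differences by limma-trend. Jun was then at -2.25 (adjusted p = 0.06), Dnaja4 at 2.47 (0.051) and Atf3 at -2.68 (0.1) for the model, and Atf3 at 3.33 (0.17) and Dnaja4 at -2.14 (0.21) for the type.

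Other genes of the same pathways, taken from lists that overlap none of the 38, were counted in the comparison of cell types, where 23% of all genes were called higher and 19.8% lower. Of 29 further immediate-early genes 12 were called higher in MDM and 3 lower, with a median of 0.71. Bhlhe40, a repressor of the clock and of interleukin-10, differed by 3.59 ± 0.23 (adjusted p = 5.9e-09), Crem, the inducible cAMP repressor, by 2.24 ± 0.37 (8e-05), Sgk1, a serum-induced kinase, by -1.34 ± 0.22 (7.2e-05) and Gadd45b by 2.04 ± 0.36 (0.00017). Genes of NF-kB and Socs feedback were called higher in 13 of 14 cases and lower in none. Among them were Cish at 3.64 ± 0.40 (adjusted p = 9.5e-07), Nfkb1 at 0.92 ± 0.14 (2.2e-05), Nfkbie at 1.50 ± 0.22 (2.4e-05) and Nfkb2 at 1.52 ± 0.23 (3.8e-05). The upstream list of MAP kinases and SRF cofactors gave 6 higher and 3 lower of 19, led by Mrtfa, an actin-sensing SRF coactivator, at 1.99 ± 0.20 (adjusted p = 3.8e-07).

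Other Dusp and Klf genes split, with 8 higher and 5 lower of 16: Klf12 was lower by -2.32 ± 0.28 (adjusted p = 2.7e-06) and Dusp10 higher by 1.72 ± 0.22 (5.8e-06). Of 12 AP-1 partners 2 were higher and 4 lower, with Mafg, a small Maf partner, at -1.26 ± 0.17 (adjusted p = 1.1e-05). Further heat-shock genes gave 5 higher and 6 lower of 31, with a median of -0.04, among them the endoplasmic reticulum chaperone Hsp90b1 at -1.02 ± 0.19 (adjusted p = 0.00021). The integrated stress response, the translational arm that runs through Atf4, had 5 of 11 higher and none lower, led by Asns at 2.28 ± 0.35 (adjusted p = 3.3e-05). Of 9 stress cytokines 5 were lower in MDM, among them Il1a at -3.73 ± 0.39 (adjusted p = 4.7e-07) and Ccl3 at -1.57 ± 0.38 (0.0028), and Il1b alone was higher at 1.89 ± 0.42 (0.0012).

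In transplanted against spontaneous microglia, where 1.84% of all genes were called, 1 of 29 further immediate-early genes was called, Bhlhe40, lower by -1.96 ± 0.28 (adjusted p = 0.0013). In the integrated stress response Atf4, Trib3 and Ddit3 were lower, by -0.79 ± 0.18, -1.97 ± 0.47 and -0.92 ± 0.23, of 11 tested, while none was higher. Among the 9 cytokines Ccl3 was lower by -1.96 ± 0.47 (adjusted p = 0.039).

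In type 1 MDM of transplanted over spontaneous tumours, where Jun and Atf3 were lower, 6 of 29 further immediate-early genes were lower and 1 higher. Of all genes 13.7% were called in this comparison, 5.79% higher and 7.96% lower. Sgk1 was lower by -2.75 ± 0.40 (adjusted p = 0.00028), Cebpd by -2.40 ± 0.44 (0.0014) and Errfi1 by -1.47 ± 0.31 (0.0043). Npas4 was higher by 3.95 ± 1.28 (0.048), but it stood at 0 in both type 1 spontaneous MDM libraries, so that size depends on the pseudocount. Of the 12 AP-1 partners 4 were lower, among them Bach1 at -1.86 ± 0.36 (adjusted p = 0.002), Nfe2l2, the master of the oxidative stress response, at -1.55 ± 0.33 (0.0046) and Mafg at -1.38 ± 0.32 (0.0074). In the same comparison 9 of 12 microglia markers were lower.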

How the data were processed

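RNA of sorted cells was extracted with TRIzol and a miRNeasy kit and amplified with a SMART-Seq v4 kit, per the labels' protocols. STAR 2.7.8a, the mm10 build and DESeq2 were used by the authors, per the submitters' processing notes; the counting tool, annotation and use of strand are not given in the sources used here. The deposited values are on a log2 scale with a floor of 4.22, and their steps show a variance-stabilising transformation of normalised counts made by the authors before deposit. Inverting it gave whole reads for 100% of values, within 1e-06 reads, with size factors of 0.62 to 1.55. Differences were fitted on log2(normalised count + 1) with limma 3.58.1 (limma-trend; R 4.3.3) over 8 group means, 21 libraries and genes with at least 10 normalised counts in at least 3 libraries. P-values were adjusted by Benjamini-Hochberg over all 17216 genes, and the fit and the inversion were tested on simulated data. The voom method of limma, run on the recovered reads, was an alternative.

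The 21 libraries were grouped by the labels of 25 samples, and replicate numbers come from the description field, which differs from the title for 3 samples. The comparisons were MDM against microglia, over all and within each tumour class, tumour model and type within each cell type, and the tests of unequal differences. The members and the other gene lists were chosen with earlier results of these data known. Every member is accounted for; those given value by value are, per comparison and role, up to 4 called members by smallest p and the member with the largest difference, and of other lists up to 4 called genes by smallest p. Fewer were printed where a list was summarised. Gene positions and promoter windows come from RefSeq (GRCm38.p6), and overlap on the other strand from the exons of GENCODE vM21. Alternatives changed the pseudocount, filter, scaling, weights, tool, samples and replicate block.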

Additional observations from a re-analysis of the deposited data

Results flagged for a closer look

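In type 1 transplanted MDM, the single group of 4 libraries, each of the 38 members was tested for a value far from the other 3, which chance gives in about 1 of 20 tests. Fos had 2090 normalised counts in replicate 4, against 629 to 728 in the others. Zfp36l1 had 1516 in replicate 1, against 2931 to 3233 in the others.

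For 3 members the difference of MDM from microglia was unequal between tumours by a test of that inequality. Jun changed by -2.20, Atf3 by -2.70 and Dnaja4 by 2.28 between spontaneous and transplanted type 1 tumours. Between type 1 and type 2 transplanted tumours Atf3 changed by 3.37 and Dnaja4 by -1.89. By the choice of tests, all 5 values use the 4 type 1 transplanted MDM libraries.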

How the results depend on the processing

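Of 15264 values of single members under 35 alternatives, 403 lost a call and 260 gained one. In 480 the sign changed with neither value called (Atf3, Ier3 and Jund among them), and in 0 with a call on either side. In the comparison of cell types over all classes 15 of 26 calls held in all 34 alternatives run for it, and the count was 22 to 29 when 1 library was left out. With voom on the recovered reads it was 25, where 42% of all genes were called. Counts of called members moved by more than 1.5 times as follows. The share of all genes called under each of these settings is not printed here. Whether members moved more than other genes therefore cannot be read from these counts.

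In type 1 spontaneous tumours (14 called) there were 6 with no filter on low values, 0 when only the groups compared were fitted, 9 without the MDM libraries rich in T and NK cell transcripts, 4 without both libraries numbered 2 (an alternative chosen after seeing the data), and 1 to 23 with 1 library left out. Type 1 transplanted tumours (18) had 28 when libraries were scaled to the same total, 26 higher and 2 lower. Type 2 spontaneous tumours (10) had 6 with no filter, 17 with array weights, 3 with only the groups compared, 6 without the T and NK-rich libraries and 5 to 13 with 1 library left out. Type 2 transplanted tumours (16) had 5 without the T and NK-rich libraries and 25 without both libraries numbered 2.

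In microglia the comparison of types (1) gave 0 with no filter or one at 50, a pseudocount of 8, the same total, quantile normalization, array weights, voom, the deposited values, only the groups compared, and without the T and NK-rich MDM, the leukocyte-rich microglia or the libraries numbered 2; with 1 library left out it gave 0 to 1. The comparison of models (3) gave 0 with no filter, 8 with array weights, 1 with only the groups compared, 0 without the T and NK-rich MDM, 0 without the leukocyte-rich microglia, and 0 to 5 with 1 library left out. Their interaction (0) gave 2 with array weights.

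In transplanted MDM the comparison of types (4) gave 2 with no filter, 8 with quantile normalization (3 higher, 5 lower), 2 with array weights and 1 to 5 with 1 library left out. In type 1 MDM the comparison of models (5) gave 8 with the same total (6 higher, 2 lower) and 4 to 11 with 1 library left out. The change of the cell-type difference with tumour type (2) gave 1 with quantile normalization, 1 with voom, 0 without the leukocyte-rich microglia and 0 to 3 with 1 library left out; with the model (3) it gave 5 with array weights, 0 without the leukocyte-rich microglia and 3 to 5 with 1 library left out. With equal totals the median difference of all genes went from 0.07 to 0.29 over all classes, from 0.15 to 0.70 in type 1 transplanted tumours and from 0.03 to 0.54 for the model in type 1 MDM. Leaving out samples also leaves fewer to estimate the spread; for the other settings the cause was not tested. Leaving out the T and NK-rich MDM could be run for 7 of 12 comparisons.

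With the replicate number as a random block, 27 members were called over all classes (23 higher, 4 lower). A fixed block, which could be fitted for that comparison only, gave 23 (22 higher, 1 lower). It used only the libraries whose number occurs in both cell types of a class. Each pair weighed the same there, so classes with more pairs weighed more, unlike in the main fit. Block, samples and weights thus changed together, and their parts were not tested. The fit without a block called 26 members and 42.7% of all genes. Deviations of same-numbered libraries correlated at 0.241 and 0.228 in type 1 spontaneous and at 0.035 to 0.082 in transplanted tumours, with a consensus correlation of 0.14. Where it could be computed, each MDM library correlated best with the microglia library of its own number, a hint of pairing from the data. It could not be computed for the single type 2 spontaneous MDM library. In MDM groups of 2 libraries the deviations mirror each other, so their correlations are not independent. Since some pairs lay under 0.1 and the labels name no shared animal, the fit without a block was kept. Of the 4 lower members, Dnaja4 (-1.05, adjusted p = 0.06), Hsp90aa1 (-0.30, 0.29) and Myc (-0.31, 0.29) lost their calls under the fixed block. Rhob kept its call there (-3.34, adjusted p = 6.8e-05). Groups of 1 to 4 libraries and 0 to 37.4 counts of genes such as Nr4a3 in microglia limit precision.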
